A study of Saccharomyces cerevisiae with 12 samples.

Results

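The 9 genes described here encode 7 proteases of the yeast vacuole and 2 small protein inhibitors of such proteases, and they were taken by systematic name from the 6100 open reading frames measured. The proteases are PEP4 (YPL154C), PRB1 (YEL060C), PRC1 (YMR297W), YBR139W (also named ATG42), LAP4 (YKL103C, also named APE1), CPS1 (YJL172W) and APE3 (YBR286W), and the inhibitors are PBI2 (YNL015W) and PAI3 (YMR174C). All 9 had a value on each of the 12 arrays and passed the filter of every fit. Total RNA of budding yeast, Saccharomyces cerevisiae, was set against a reference RNA on arrays of 2 colours, with 1 array per strain and time point. The deletion strain, labelled delUSV1, lacks USV1 (YPL230W, a zinc finger gene) and was sampled at 0, 2, 5, 7 and 9 hours and 1 day of a stationary phase course. Wild type, strain DBY8778, was sampled at 0, 3, 5, 7 and 9 hours and 1 day. The labels state neither a medium, nor the event from which hours were counted, nor the source of the reference, nor whether the deletion strain shares the background of DBY8778 or is 1 clone. They name no repeated culture, and the spread from culture to culture is therefore not in the p-values below.

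The vacuole is the lysosome of yeast, an acidic compartment in which proteins are broken down and their amino acids returned to the cell. Most of its proteases are made as inactive precursors and are matured there in a cascade headed by proteinase A, the product of PEP4. Protein turnover in the vacuole is known to rise when cells run short of nutrients. The inhibitors act on the matured enzymes from the cytosol, where they are held to protect the cell from protease that escapes the vacuole.

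Values are log2 ratios to the reference, with each array centred to a median of 0, so a value of 1 is a 2-fold higher ratio than that of the median gene. A positive value was read as more RNA in the sample than in the reference. That direction is likely and not stated. It rests on USV1, which was lower in the deletion strain than in wild type at all 5 shared times. The differences ran from -4.92 (9 hours) to -0.43 (0 hours). At 7 hours USV1 still had a ratio of 1.14 in the deletion strain, above the median gene, against 4.4 in wild type. The source of that signal was not tested. No pair of arrays correlated below -0.07 across genes. Between 5931 and 6085 genes had a value on an array. The arrays of 7 hours, 9 hours and 1 day, called late here, had a standard deviation over genes of 1.169 to 1.462, against 0.488 to 0.619 on those of 0 hours and of 2 or 3 hours, called early. The values of a stage are given below in order of time. In whole-cell RNA, fewer cells that make a transcript and less of it in each cell cannot be told apart.

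Late in the course, transcripts of 4 of the 7 proteases and of both inhibitors were higher than early in the course, and no member was called lower. The comparison set the 6 late arrays against the 4 early ones of both strains, with strain as a term and the 2 arrays at 5 hours left out, and a gene was called at an adjusted p under 0.05 (limma). The 6 of 9 members called higher stood beside a background of 28.2% of the 6033 genes tested. Their median change, called or not, was 1.35 on the log2 scale, against 0.07 for all genes tested. After quantile normalization, which gives every array the same spread, 5 of 9 were called, beside 1599 of 6033 genes called higher. The medians were then 0.72 for the members and 0.02 for all genes. With the 5-hour arrays counted as early 4 of 9 were called, beside 1945 genes called in either direction. With those arrays left out, 1703 genes were called higher and 1617 lower. The inhibitors led, with PBI2 at 2.85 and PAI3 at 2.60 (SE 0.27 each), which are ratios of 7.20-fold and 6.04-fold. They took places 145 and 200 from the highest among 6033 genes. The arrays of a stage were taken at different times and are not repeats, so the p-values set the change against the spread within stages.

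**Figure D1:**
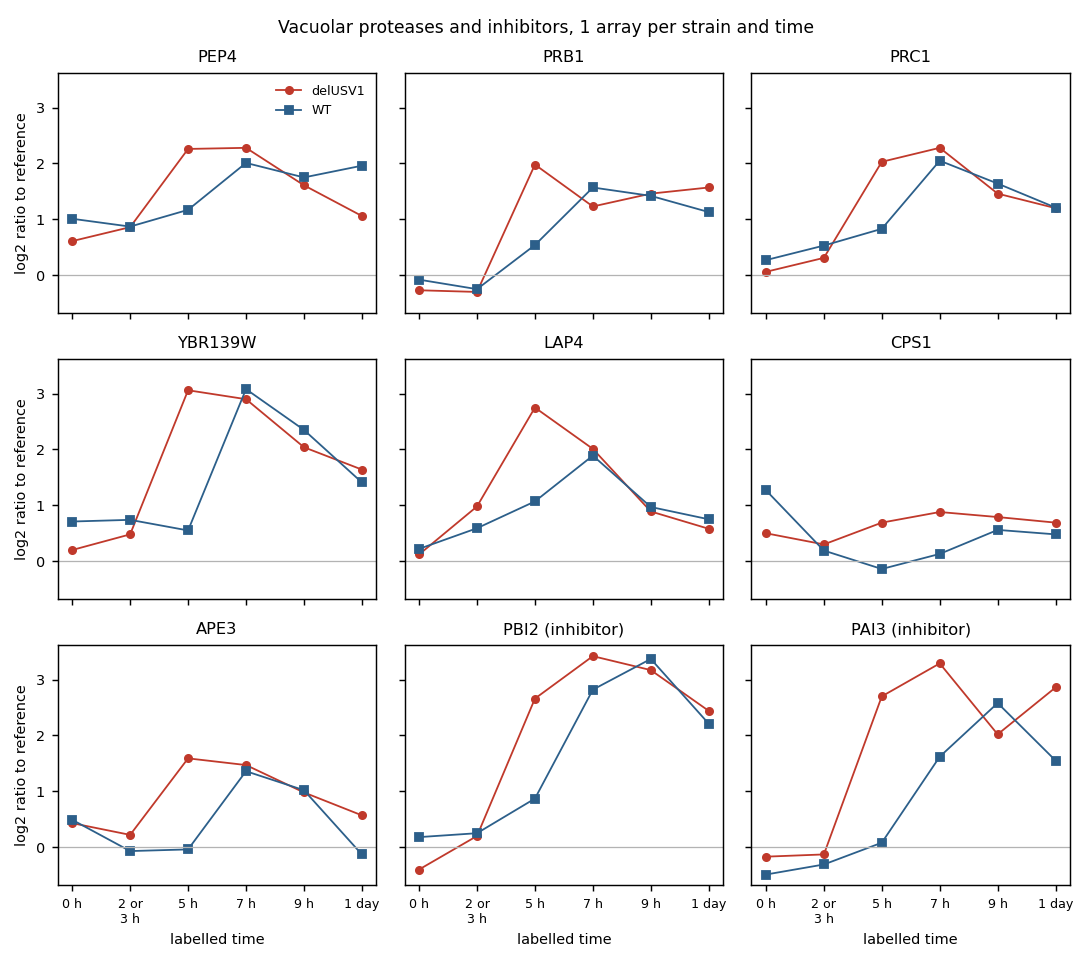
Each panel plots the centred log2 ratio to the reference of 1 gene (vertical axis) at each labelled time (horizontal axis), with 1 array per point, circles for delUSV1 and squares for WT. The points of delUSV1 climb between 2 and 5 hours and those of WT mostly between 5 and 7 hours, while CPS1 stays between -0.14 and 1.27 throughout.

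Among the endoproteinases, which cut within proteins, PEP4 encodes proteinase A, an aspartyl protease. In delUSV1 its log2 ratio was 0.61 and 0.86 on the early arrays, 2.26 at 5 hours, and 2.28, 1.61 and 1.06 on the late ones. In wild type it was 1.01 and 0.87 on the early arrays, 1.17 at 5 hours, and 2.01, 1.75 and 1.96 on the late ones. In each strain every late value lay above every early one, and the 1-day value of delUSV1 came close to the early values. PEP4 rose by 0.94 (SE 0.23, adjusted p = 0.00262, limma), a ratio of 1.92-fold. Among all genes of an array, PEP4 stood at percentiles 93.9, 92.0 and 82.8 on the late arrays of delUSV1, against 86.8 and 94.5 on its early ones. The wild-type percentiles were 93.3, 91.4 and 94.1 late, against 94.3 and 96.8 early, so its place was high throughout. After quantile normalization the change of PEP4 turned to -0.23 and did not pass (adjusted p = 0.415, limma), so its rise depends on how the spread of the arrays is treated. It was also not called when the 5-hour arrays were counted as early (0.65, adjusted p = 0.101).

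PRB1 encodes proteinase B, a serine protease of the subtilisin family. Its ratio in delUSV1 was -0.27 and -0.30 on the early arrays, 1.98 at 5 hours, and 1.23, 1.46 and 1.57 on the late ones. The wild-type ratios were -0.08 and -0.25 on the early arrays, 0.54 at 5 hours, and 1.57, 1.42 and 1.13 on the late ones. PRB1 was below the median gene on every early array and above it on every later one. It rose by 1.62 (SE 0.19, adjusted p = 3.21e-06, limma), or 3.08-fold, and by 1.50 after quantile normalization. It stood at percentiles 84.3, 90.8 and 89.8 on the late arrays of delUSV1, against 29.0 and 26.7 on its early ones. In wild type these were 90.2, 88.4 and 86.2 late, against 44.6 and 30.6 early, so PRB1 moved up in the order of genes where PEP4 did not.

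The carboxypeptidases remove amino acids from the end of a chain. PRC1 encodes carboxypeptidase Y, a serine carboxypeptidase much used as a model cargo of sorting to the vacuole. In delUSV1 PRC1 had ratios of 0.06 and 0.31 on the early arrays, 2.03 at 5 hours, and 2.28, 1.46 and 1.20 on the late ones. In wild type these were 0.27 and 0.53 on the early arrays, 0.83 at 5 hours, and 2.05, 1.64 and 1.21 on the late ones. PRC1 peaked at 7 hours in both strains and rose by 1.35 (SE 0.24, adjusted p = 0.000236, limma). Over all alternative settings this change ran from 0.78 to 1.56 and stayed called. In wild type alone the call was lost after quantile normalization. The percentiles of PRC1 were 93.9, 90.8 and 85.5 late in delUSV1, against 54.4 and 74.7 early. In wild type they were 93.7, 90.5 and 87.3 late, against 67.1 and 86.8 early.

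YBR139W is a relative of carboxypeptidase Y and is known to take part in the breakdown of material delivered by autophagy. Its ratio in delUSV1 was 0.20 and 0.48 on the early arrays, 3.06 at 5 hours, and 2.90, 2.04 and 1.64 on the late ones. In wild type it was 0.71 and 0.74 on the early arrays, 0.55 at 5 hours, and 3.08, 2.35 and 1.41 on the late ones. The step from 5 to 7 hours in wild type, 2.53, was the largest of any protease in that strain. YBR139W rose by 1.70 (SE 0.30, adjusted p = 0.000212, limma), the largest change among the 7 proteases in this scaling, although PRB1 led after quantile normalization, in which YBR139W stood at 0.72. With the 5-hour arrays counted as early it was 1.28 and missed the threshold (adjusted p = 0.0507). In wild type alone YBR139W was not called after quantile normalization. Its percentiles in wild type were 97.4, 94.5 and 89.8 late, against 86.8 and 94.5 early. In delUSV1 they were 96.2, 94.7 and 90.5 late, against 64.9 and 84.1 early. PRC1 and YBR139W had the closest course of any pair of members (r = 0.970 over 12 arrays), but related sequences can bind each other's spots, and the part of this in the values was not tested.

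CPS1 encodes carboxypeptidase S, a metalloprotease made as a membrane-bound precursor, and it was the member that least followed the others. In delUSV1 it had ratios of 0.50 and 0.30 on the early arrays, 0.69 at 5 hours, and 0.88, 0.79 and 0.69 on the late ones. In wild type they were 1.27 and 0.19 on the early arrays, -0.14 at 5 hours, and 0.13, 0.56 and 0.48 on the late ones. The highest value of wild type was thus its first, whereas in delUSV1 every late value lay slightly above the early ones. Over both strains CPS1 changed by 0.02 (SE 0.24, adjusted p = 0.941, limma), and by -0.51 after quantile normalization (adjusted p = 0.21). Its correlation with the other members ran from -0.08 (LAP4) to 0.379 (APE3), with a median of 0.175.

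The aminopeptidases act from the other end of the chain. LAP4 encodes aminopeptidase I, which is carried to the vacuole straight from the cytosol, in vesicles formed by proteins of autophagy. Its ratio in delUSV1 was 0.12 and 0.98 on the early arrays, 2.75 at 5 hours, and 2.01, 0.89 and 0.58 on the late ones. In wild type it was 0.22 and 0.59 on the early arrays, 1.07 at 5 hours, and 1.89, 0.97 and 0.75 on the late ones. LAP4 therefore made a peak, and its late values overlapped the early ones in delUSV1 but not in wild type.

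APE3 encodes aminopeptidase Y, which travels to the vacuole through the secretory pathway. In delUSV1 it had ratios of 0.43 and 0.22 on the early arrays, 1.59 at 5 hours, and 1.47, 0.98 and 0.57 on the late ones. In wild type they were 0.49 and -0.07 on the early arrays, -0.04 at 5 hours, and 1.36, 1.02 and -0.13 on the late ones. At 1 day APE3 was close to its early values in both strains, and lowest of its 6 values in wild type.

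Neither aminopeptidase passed in the comparison of late with early arrays. LAP4 stood at 0.70 (SE 0.30, adjusted p = 0.0598, limma) and APE3 at 0.61 (SE 0.28, adjusted p = 0.0753, limma). With late taken as 7 and 9 hours alone, both passed, LAP4 at 0.96 (adjusted p = 0.0117) and APE3 at 0.94 (adjusted p = 0.00165). After quantile normalization they stood at 0.03 (adjusted p = 0.958) and 0.29 (adjusted p = 0.385). LAP4 also passed without the 2-hour or the 1-day array of delUSV1 or the 1-day array of wild type, and APE3 without either 1-day array.

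PBI2 encodes the inhibitor of proteinase B, and together with thioredoxin it also forms a factor known from vacuole fusion and inheritance. Its ratio in delUSV1 was -0.40 and 0.20 on the early arrays, 2.66 at 5 hours, and 3.42, 3.17 and 2.44 on the late ones. In wild type it was 0.18 and 0.25 on the early arrays, 0.87 at 5 hours, and 2.82, 3.37 and 2.21 on the late ones. All 6 late values, the lowest of them 2.21, were far from the 4 early ones, the highest of which was 0.25. The adjusted p of its change was 3.60e-07 (limma), and after quantile normalization the change was 2.09.

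PAI3 encodes the inhibitor of proteinase A, a short protein known to take up a helix only when bound to the enzyme. In delUSV1 it had ratios of -0.17 and -0.13 on the early arrays, 2.70 at 5 hours, and 3.29, 2.02 and 2.86 on the late ones. In wild type they were -0.49 and -0.31 on the early arrays, 0.08 at 5 hours, and 1.62, 2.58 and 1.55 on the late ones. PAI3 was below the median gene on every early array and above it on every other one. The adjusted p of its change was 1.25e-06 (limma), and after quantile normalization the change was 2.19.

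Within each strain the same 6 members were called, with a smaller fit of 3 late and 2 early arrays per strain that shared 1 residual spread. In delUSV1 6 of 9 members rose, beside a background of 20.0%, and in wild type 6 of 9, beside 18.0%. PBI2 rose by 3.11 in delUSV1 and 2.58 in wild type (SE 0.38 each), and PAI3 by 2.87 and 2.32 (SE 0.39 each). PRB1 rose by 1.70 in delUSV1 and 1.54 in wild type (SE 0.27 each), YBR139W by 1.85 and 1.56 (SE 0.44 each), PRC1 by 1.46 and 1.23 (SE 0.35 each) and PEP4 by 0.92 and 0.97 (SE 0.33 each). All late arrays lay above all early ones for 8 of 9 members in delUSV1, beside 33.5% of genes, for 7 of 9 in wild type, beside 31.9%, and for 6 of 9 over both strains at once, beside 20.6%. The call of PEP4 was lost in 7 of the 10 fits that left out 1 array for delUSV1 and in 5 of 10 for wild type. PRC1 and YBR139W also lost their calls without the 0-hour array of the strain, and YBR139W without the 3-hour array of wild type. These fits leave 1 early array in the strain. With 1 array left out, the change of PRC1 ran from 1.14 to 1.68 in delUSV1 and from 1.02 to 1.44 in wild type. That of YBR139W ran from 1.5 to 2.13 and from 1.16 to 1.99. With the 5-hour arrays counted as early, 0 members were called in delUSV1 and 2 in wild type. Beside them 82 and 940 genes were called in either direction. The fits without the 5-hour arrays called 1205 genes higher and 1161 lower in delUSV1, and 1088 and 1177 in wild type. After quantile normalization 5 and 3 members were called, beside 1260 and 961 of 6033 genes called higher.

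**Figure D2:**
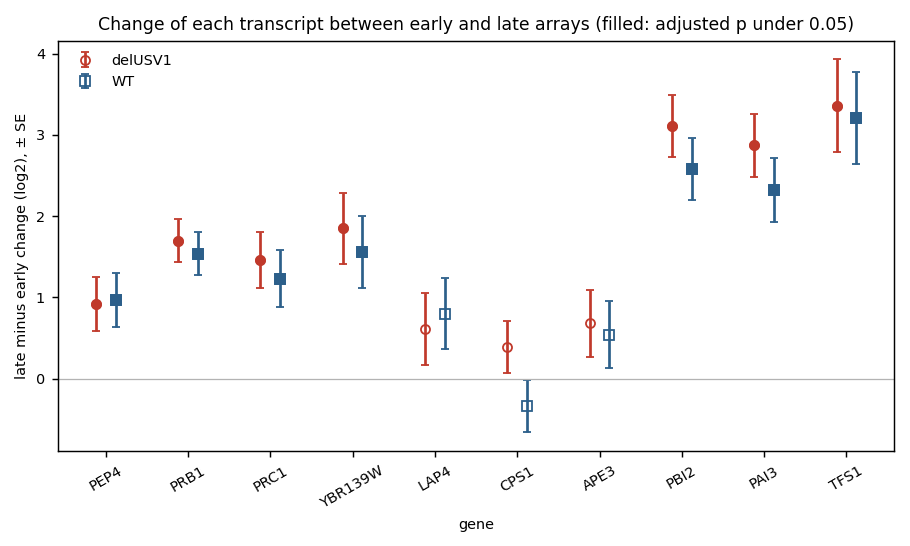
The vertical axis gives the late minus early change on the log2 scale with its standard error for each gene on the horizontal axis, with circles for delUSV1 (3 late, 2 early arrays), squares for WT (3 late, 2 early arrays) and filled symbols for an adjusted p under 0.05. PBI2, PAI3 and TFS1 lie above all proteases in both strains, and CPS1 lies on either side of 0.

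From 0 hours to 1 day alone, with 1 array per strain at each time, 1 of the 9 members was called, beside a background of 3.1% of 5838 genes called higher. PBI2 rose by 2.44 (SE 0.55, adjusted p = 0.0473, limma). PAI3 stood at 2.54 (SE 0.68, adjusted p = 0.0677, limma) and PRB1 at 1.52 (SE 0.47, adjusted p = 0.0905, limma). APE3 at -0.24 and CPS1 at -0.30 were the members with an estimate below 0. This count depended on single times, since 5 members were called without the 5-hour arrays and 0 without the 7-hour or the 9-hour arrays. Calls over all genes moved widely too. With 1 time left out they ran from 54 to 1807 in either direction, against 181 higher and 71 lower with all times. After quantile normalization 3 were called, beside 770 of 5838 genes called higher.

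The largest upward step of the course came at different times in the strains. In delUSV1 all 9 members had it between 2 and 5 hours, as did 37.1% of genes. In wild type 8 of 9 had it between 5 and 7 hours, where 32.1% of genes did. The exception was CPS1, whose largest upward step in wild type was 0.43, from 7 to 9 hours. In delUSV1 the step ran from 0.39 (CPS1) to 2.83 (PAI3), and in wild type, over the 8 members, from 0.82 (LAP4) to 2.53 (YBR139W).

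Between 7 hours and 1 day most members fell, by differing amounts. In each strain 8 of 9 were lower at 1 day than at 7 hours, beside 50.7% of genes in delUSV1 and 46.4% in wild type. The 1-day value minus the 7-hour value was -1.26 in delUSV1 and -1.67 in wild type for YBR139W, -1.43 and -1.14 for LAP4, and -0.90 and -1.49 for APE3. PRC1 differed by -1.08 and -0.84. PRB1 differed by 0.34 in delUSV1 and -0.44 in wild type, and CPS1 by -0.19 and 0.35. Of the inhibitors, PBI2 differed by -0.98 in delUSV1 and -0.61 in wild type, and PAI3 by -0.43 and -0.07. PEP4 differed by -1.22 in delUSV1 and by -0.05 in wild type. These are differences between single arrays, with no test.

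The strains were compared in the late minus early change and in the average over the shared times, and no member passed. The 5-hour arrays were left out of the late minus early fit because earlier results had shown the strains far apart there. The fit over shared times gave 1 difference for all times. Neither tests a difference confined to 5 hours. The late minus early change differed between delUSV1 and wild type by -0.19 (LAP4) to 0.73 (CPS1) among the members, and 0 of 9 were called, as were 0.0% of 6033 genes (limma). At an unadjusted p under 0.05 the counts were 0 of 9 members and 247 of all genes. For PBI2 the difference was 0.52 (SE 0.53) and for PAI3 0.56 (SE 0.55), with an adjusted p = 0.965 for each, so differences of this size could not be told from 0. Leaving out 1 array took them from 0.22 (without the 0-hour array of delUSV1) to 0.82 (without its 2-hour array) for PBI2, and from 0.27 (without the 7-hour array of delUSV1) to 0.91 (without its 9-hour array) for PAI3. With the 5-hour arrays counted as early they were -0.18 and -0.23. Averaged over the 5 shared times, delUSV1 minus wild type ran from -0.02 (PEP4) to 1.07 (PAI3) with a median of 0.29, and again 0 of 9 members and 0.0% of 6062 genes were called. At an unadjusted p under 0.05 the counts were 1 member, PAI3, and 260 genes. PAI3 had the largest difference (SE 0.43, adjusted p = 0.814, limma) and was higher in delUSV1 at 4 of the 5 times. It was 0.68 without the 5-hour arrays.

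The strains stood furthest apart at 5 hours. At that time 9 of 9 members were higher in delUSV1, beside 3090 of 6020 genes. At least 2-fold higher were 8 of 9 members, where 20.4% of genes were. The difference was 2.62 for PAI3, 2.51 for YBR139W, 1.79 for PBI2, 1.68 for LAP4, 1.63 for APE3, 1.44 for PRB1, 1.20 for PRC1, 1.09 for PEP4 and 0.83 for CPS1. The median of the members was 1.63, against 0.05 for all genes. At 0 hours 8 of 9 were instead lower in delUSV1, by at most 0.77 (CPS1), beside 2837 of 5973 genes. The median difference of the members was then -0.21. On the late arrays the median difference of the members was 0.23, -0.14 and 0.23 in order of time. On the first and last of these 1 member was at least 2-fold higher in delUSV1, PAI3 in both cases (1.67 at 7 hours and 1.31 at 1 day), beside 5.79% and 9.07% of genes. No such difference was repeated with a second array. At 5 hours the members of delUSV1 were near or above their 7-hour values, with PBI2 furthest below, at 2.66 against 3.42. All members of wild type were below their 7-hour values. LAP4 of wild type, at 1.07, was nevertheless above its 0.97 at 9 hours and 0.75 at 1 day. APE3 of wild type, at -0.04, was above its 1-day value of -0.13. Strain and timing cannot be told apart at 5 hours.

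**Figure D3:**
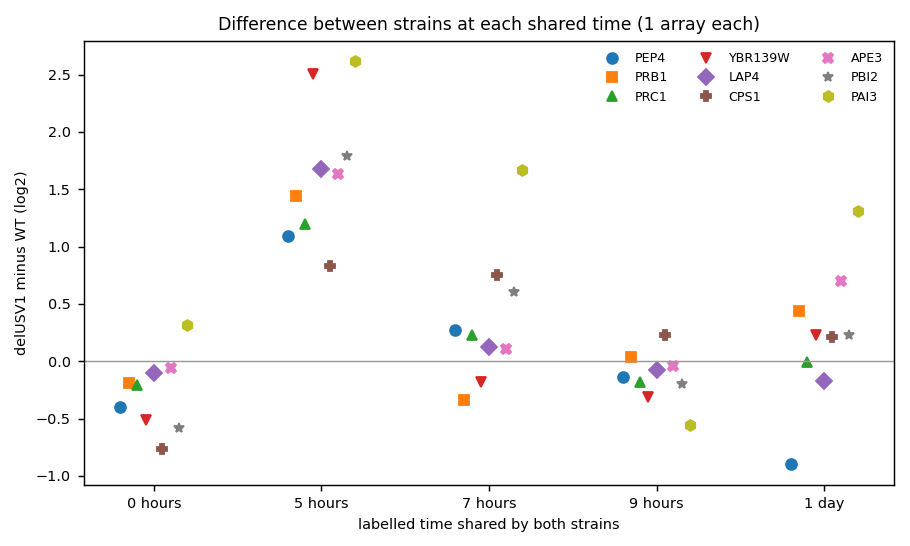
The vertical axis gives delUSV1 minus WT in log2 units for each of the 9 genes at the 5 times that both strains share (horizontal axis), with 1 array per strain and time. At 5 hours all 9 points lie between 0.83 and 2.62, and at 0 hours 8 of 9 lie below 0. At 7 hours, 9 hours and 1 day they lie on both sides of 0, from -0.90 (PEP4 at 1 day) to 1.67 (PAI3 at 7 hours).

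Each enzyme was also set against its inhibitor on the same array. Carboxypeptidase Y has an inhibitor too, encoded by TFS1 (YLR178C), which was added for this comparison. TFS1 had ratios of -0.06 and 1.46 on the early arrays, 5.33 at 5 hours, and 4.82, 3.57 and 3.79 on the late ones in delUSV1. In wild type they were 0.91 and 1.44 on the early arrays, 1.70 at 5 hours, and 5.43, 4.40 and 3.33 on the late ones. TFS1 rose by 3.29 (SE 0.38, adjusted p = 3.58e-06, limma), more than any member, but by 0.88 after quantile normalization, where it did not pass (adjusted p = 0.226). Its percentiles in delUSV1 were 99.2, 98.7 and 98.6 late, against 45.4 and 99.3 early. In wild type they were 99.7, 99.0 and 98.2 late, against 92.5 and 99.8 early. Both quantities of a pair are ratios to the same reference, so only their changes can be compared, not the amounts of the transcripts.

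In the centred values the enzyme lost ground to the inhibitor in all 3 pairs, but after quantile normalization only PEP4 and PAI3 still passed. The difference PEP4 minus PAI3 was -1.01, -0.41 and -1.80 on the late arrays of delUSV1, against 0.78 and 0.99 on its early arrays. In wild type it was 0.39, -0.83 and 0.41 on the late arrays, against 1.50 and 1.18 on the early ones. In each strain no late value reached an early one. The late minus early change of this difference was -1.65 (exact permutation test within strains, two-sided, p = 0.01, adjusted p = 0.015 over 3 pairs), and it was -2.42 after quantile normalization.

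PRB1 minus PBI2 changed by -1.23 (exact permutation test, p = 0.02, adjusted p = 0.02), with late values of -2.19, -1.71 and -0.87 in delUSV1 and -1.25, -1.95 and -1.08 in wild type. The early values were 0.13 and -0.50 in delUSV1 and -0.26 and -0.50 in wild type. PRC1 minus TFS1 changed by -1.94 (exact permutation test, p = 0.01, adjusted p = 0.015). The changes of these pairs shrank to -0.58 and -0.11 after quantile normalization and no longer passed (adjusted p = 0.12 and adjusted p = 0.87), whereas that of PEP4 and PAI3 still did. With 100 arrangements the smallest p this test can give is 0.01, and arrays of 1 time course are not independent draws.

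**Figure D4:**
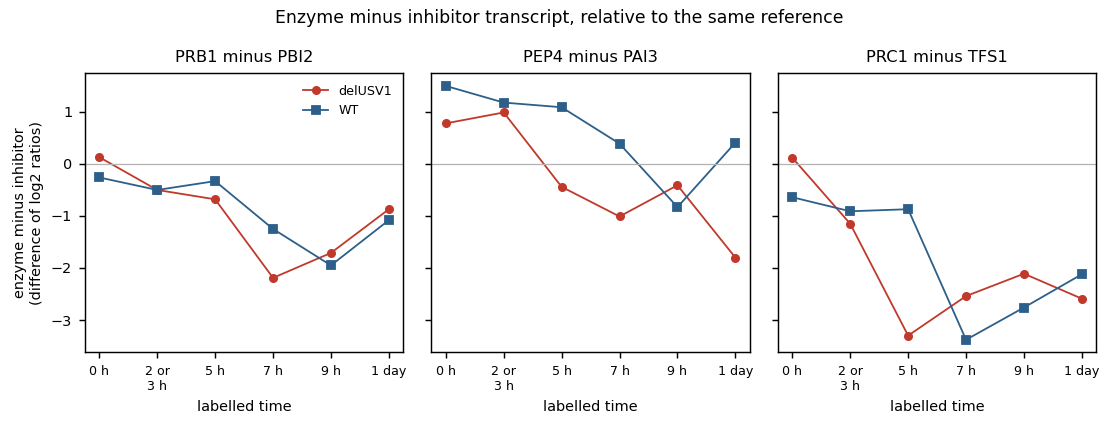
Each panel plots the log2 ratio of an enzyme minus that of its inhibitor (vertical axis) at each labelled time (horizontal axis), with circles for delUSV1 and squares for WT and 1 array per point. All 3 differences are lower on the late than on the early arrays of the same strain, and for PEP4 minus PAI3 the late values run from -1.80 to 0.41.

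The courses of the members were alike apart from CPS1. Over the 12 arrays, the 28 pairs without CPS1 correlated at r = 0.594 to r = 0.970, with a median of 0.833, against a median of 0.002 over all pairs of the 5362 genes with 12 values. The arrays share 1 reference and a common shift in the middle of each course, so high correlations are frequent here and are given as a description. The inhibitors correlated with each other at 0.934 and PBI2 with PRC1 at 0.933, and the lowest value was that of LAP4 with PAI3. The genes closest to PBI2 were SDH4 (0.981), AGX1 (0.979) and YOR019W (0.978), and those closest to PAI3 were RTC2 (0.986), FAT3 (0.983) and FMP40 (0.980). Closest to PRB1 were AFR1 (0.983), YPS6 and RMD5 (0.980 each), and closest to PEP4 were SNA3 (0.951), PSK1 (0.950) and YBR053C (0.948). Closest to PRC1 were YNL134C (0.988), YER066C-A (0.980) and COX19 (0.977), and closest to YBR139W were YKL091C (0.987), PCL7 (0.979) and again YNL134C (0.978). LAP4 came closest to MRPL40 (0.953), FMC1 (0.940) and MSS51 (0.935), and APE3 to YHR214W (0.924), PHO85 (0.922) and YBR138C (0.921). CPS1 had no comparably close gene, with LAT1 (0.798), DAS1 (0.793) and NCE103 (0.792) first. No member was among the 3 genes closest to another member.

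Around the proteases, other genes of the vacuole did not move as 1 group. Of 9 other vacuolar hydrolases 7 were called higher and 1 lower in the late minus early change, with a median of 0.83, beside a background of 28.2% called higher, led by the acid trehalase ATH1 at 2.41 (SE 0.21), with the metalloprotease gene PFF1 at -0.97 (SE 0.20). Of 18 genes for sorting and delivery to the vacuole 7 were called higher and 2 lower, beside the same 28.2% and 26.8%, with a median of 0.43, from ATG8, the ubiquitin-like protein of autophagy, at 3.04 (SE 0.23) to PEP5, a subunit of a vacuolar tethering complex, at -1.19 (SE 0.28). Genes listed for the vacuolar proton pump, which acidifies the compartment in which these proteases work, went the other way. The list also holds genes for assembly of the pump and for a form of it outside the vacuole. Of the 17 genes listed 13 were called lower and 0 higher (limma, none at an unadjusted p under 0.05 either), with a median of -0.92, beside a background of 26.8% called lower, and VMA3 was lowest at -1.75 (SE 0.23). The proton pump counts were 13 with the values as deposited and 12 after quantile normalization, beside 1770 and 1516 of 6033 genes called lower. The other hydrolases called higher were 6 and 3, beside 1493 and 1599 genes called higher. After quantile normalization ATG8 stood at 1.11, VMA3 at -3.01, PFF1 at -0.62 and the median of the other hydrolases at 0.44. Of the thioredoxins, TRX2 rose by 0.88 (SE 0.24) and TRX1 fell by 0.87 (SE 0.27), and TRX2 turned to -0.75 after quantile normalization and did not pass (adjusted p = 0.0893).

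**Figure D5:**
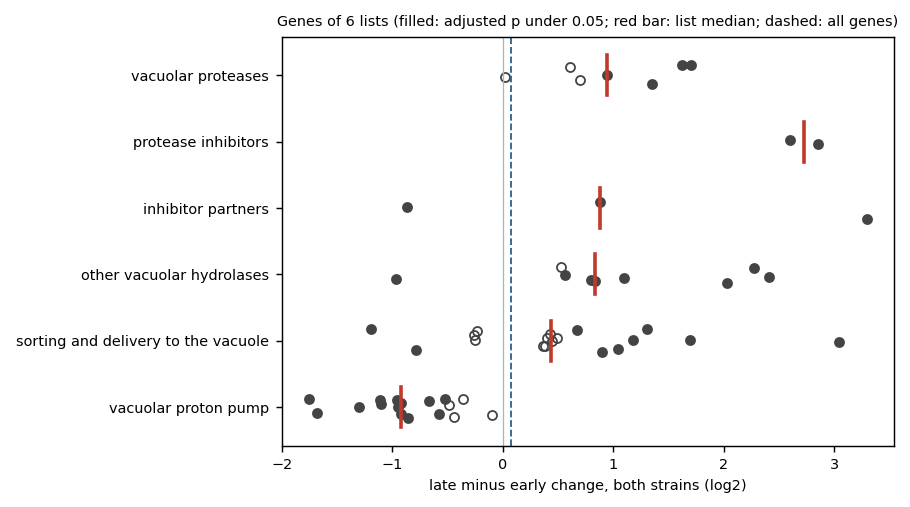
The horizontal axis gives the late minus early change on the log2 scale over both strains for each gene of 6 lists (rows), with filled points for an adjusted p under 0.05, a red bar at the list's median and a dashed line at the median of all genes, 0.07. The proteases lie between 0.02 and 1.70, both inhibitors lie above 2.5, and every gene of the proton pump list lies below 0.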

How the data were processed

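The authors deposited 1 table of log2 ratios, with 1 value per open reading frame and array. What scanner, filter on spots or normalization they used is not given in the sources used here. Log base and direction are not stated, and base 2 and sample over reference were taken. No column of other samples was present (0). Names came from a RefSeq table of assembly R64, used for names only, which matched 5592 genes. No protein or promoter sequence was used here.

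All arrays were centred on their median. Changes were fitted with limma 3.58.1 (lmFit and eBayes, R 4.3.3), with Benjamini-Hochberg adjustment over all genes of a fit and a threshold of 0.05. A gene entered with 4 or more of 5 values in each strain, and for 1 day minus 0 hours with all 4 values at those times. The late minus early fits used 10 arrays, and those over shared times used 10 arrays with time point as a factor. Enzyme and inhibitor were compared by an exact permutation test of late and early labels within strains. The members, the 6 lists (56 genes, all with values) and the tests were chosen with earlier results of these data known. The genes named beside the members are TFS1 and the thioredoxin TRX2, the largest called rise and fall of each other list, and the 3 genes best correlated with each member. The arrays' number limits the precision.

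In simulated data 50 genes were changed by 1 and 50 by 2 on the log2 scale. The late minus early fit over 6033 genes recovered 28 and 49 of them, with 11 false calls. The strain difference of these changes recovered 0 and 23, with 0 false calls. The simulated noise was independent between arrays, with 1 spread per gene for early and late arrays alike. Real arrays are steps of a time course in which many more genes were called, so these counts need not hold for the real fits.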

Additional observations from a re-analysis of the deposited data

Results flagged for a closer look

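CPS1 stood out because every late array of delUSV1 lay above the mean of its early arrays while every late array of wild type lay below its own. The late minus early change was 0.39 (SE 0.32) in delUSV1 and -0.34 (SE 0.32) in wild type, a difference of 0.73 (SE 0.46) that did not pass (adjusted p = 0.961, limma). The early mean of wild type rests on a value of 1.27 at 0 hours and 0.19 at 3 hours. Without the 0-hour array of wild type the difference was 0.19, and without the 3-hour array of wild type it was 1.27.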

How the results depend on the processing

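The number of members called in the late minus early change of both strains was 6. It was 5 after quantile normalization, 4 with the 5-hour arrays counted as early and 6 to 8 when 1 array was left out, which gave 2881 to 3394 of all genes against 3320. In delUSV1 the members called ran from 3 to 6 and all genes from 1314 to 2516 (2366 with all arrays), and in wild type from 3 to 6 and from 1249 to 2450 (2265 with all arrays). Counting the 5-hour arrays as early gave 1945 genes over both strains, 0 members and 82 genes in delUSV1, and 2 members and 940 genes in wild type. The 5-hour array had a standard deviation over genes of 1.627 in delUSV1 and 0.679 in wild type. Quantile normalization gave 3 members in wild type, 3 members and 1502 genes from 0 hours to 1 day (against 1 and 252), and 1 gene for the strain difference of changes. It turned the change of PEP4 to -0.23 over both strains, -0.07 in delUSV1 and -0.39 in wild type, none of which passed, and took PRB1 minus PBI2 to -0.58 and PRC1 minus TFS1 to -0.11. It equalizes the spread of early and late arrays by construction. With the values as deposited, uncentred, the median change of all genes shifted by -0.103 in delUSV1, and the split of calls from 0 hours to 1 day was 174 up to 124 down, against 181 to 71.

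From 0 hours to 1 day the members called ran from 0 to 5 and all genes from 54 to 1807 when 1 time was left out. The strain effect kept 0 members in every alternative, and 2 genes of the table passed at 7 hours, 9 hours and 1 day alone; leaving out 1 time gave 0 genes, and the strain difference of changes gave 0 members and 0 genes without any 1 array. With 1 array left out, the enzyme minus inhibitor change ran from -1.41 to -1.07 for PRB1 and PBI2, from -1.82 to -1.45 for PEP4 and PAI3 and from -2.26 to -1.62 for PRC1 and TFS1. All 3 pairs lost their call without the 0-hour array of wild type. PRB1 and PBI2 also lost it without the 3-hour array of wild type or the 0-hour array of delUSV1. Each of these settings leaves 1 early array in a strain and fewer arrangements to permute. The smallest p the test can give is then higher than with all arrays. Of 666 refits of single members, 48 crossed the threshold with the same sign and 47 had another sign than the value reported. In 3 of the 47, all of PEP4, the value reported was a called one, and in the other 44 neither value was called.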

Other observations

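Like LAP4, the alpha-mannosidase AMS1 and the aminopeptidase APE4 are known to reach the vacuole directly from the cytosol, and ATG19 encodes the receptor that carries LAP4 and AMS1. These genes were chosen after their values were seen. In the late minus early change of both strains AMS1 rose by 2.03 (SE 0.20, adjusted p = 5.06e-07, limma), APE4 by 1.10 (SE 0.21, adjusted p = 0.000445) and ATG19 by 0.90 (SE 0.24, adjusted p = 0.00571), while LAP4 stood at 0.70 and did not pass. AMS1 still passed after quantile normalization at 1.67, and APE4 at 0.44 and ATG19 at 0.48 did not. At 1 day AMS1 had ratios of 2.08 in delUSV1 and 1.85 in wild type, and APE4 of 1.65 and 1.80, where LAP4 had come down to 0.58 and 0.75. The 0-hour array of wild type gave no value for APE4.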
